A study of Mus musculus with 15 samples.

Results

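The major histocompatibility complex (MHC) class II pathway was followed through 7 mouse genes in livers with and without diet-induced steatohepatitis: H2-Aa, H2-Ab1, H2-Eb1, H2-DMa, H2-DMb1, Cd74 and Ciita. They were taken by gene symbol, all 7 were found in each of the 3 deposited count tables, and they are 7 of the 26839 genes in any of these tables. All 7 also passed the filter on low counts in every comparison.

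Bulk poly(A) RNA of whole liver had been sequenced from male C57BL/6J mice, in 15 libraries and 5 groups of 3. All mice had received an adeno-associated virus of serotype 8 (AAV8), and the time is labelled as 16 weeks in every group, while no label gives the age of the mice. Activin A NASH livers carried Activin A behind the thyroxine binding globulin (TBG) promoter, and were fed the FPC NASH diet (NASH is non-alcoholic steatohepatitis) and given sugar water. Gpnmb hairpin NASH livers, on the same diet and water, carried a short hairpin RNA against Gpnmb behind an H1 promoter. Scramble NASH livers were fed alike and carried a scramble control in the hairpin vector. GFP NASH livers were fed alike and carried green fluorescent protein (GFP) behind the TBG promoter. Chow GFP livers carried the same GFP vector, with standard chow and normal water. The TBG promoter is active in hepatocytes, so the Activin A and GFP transgenes were placed in cells other than the professional antigen-presenting cells, while an H1 promoter is not restricted to hepatocytes. Whether each library is a separate mouse is not labelled, and the p-values below therefore speak only of variation among libraries, which may be technical in part.

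Class II molecules carry peptides from endocytosed protein to the surface of dendritic cells, B cells and macrophages, where CD4+ T cells read them. An alpha and a beta chain (H2-Aa with H2-Ab1 for I-A) assemble on the invariant chain Cd74, which blocks the groove until lysosomal proteases remove it. The H2-DM heterodimer, made by H2-DMa and H2-DMb1, then exchanges the last invariant chain fragment for a peptide. Ciita, the class II transactivator, is recruited to promoters with conserved W, X and Y elements and switches the whole set on. In liver, Kupffer cells, recruited macrophages, dendritic cells and B cells are the usual sources. H2-Eb1 encodes the beta chain of I-E, whose alpha chain is not made in C57BL/6 mice. The alpha chain gene H2-Ea was looked up by symbol and is in none of the deposited count tables.

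The classical chain genes and the H2-DM genes lie together in the MHC on chromosome 17. In the coordinates the authors deposited (GRCm38), H2-DMa (ENSMUSG00000037649) spans 34135182 to 34139101, H2-DMb1 (ENSMUSG00000079547) 34153072 to 34160230 and H2-Ab1 (ENSMUSG00000073421) 34263209 to 34269418, all on the plus strand. H2-Aa (ENSMUSG00000036594) follows on the minus strand at 34282744 to 34287827 and H2-Eb1 (ENSMUSG00000060586) on the plus strand at 34305877 to 34316199.

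RefSeq promoter windows of the same build (GRCm38.p6) were held for 4 of the 7 genes. The 3 shown here were chosen because they hold both sets of letters marked below, X before Y at a gap of 24 to 25 bases. Their RefSeq starts lie within 119 bases of the deposited gene starts. The stretches are the 150 bases upstream of the RefSeq start, shown because the genes of this pathway moved together. Capitals mark the letters TNGNAACT, which lie within the X element, and TGATTGG, the reverse CCAAT letters of the Y element:
H2-DMb1, chr17:34153041-34153190, plus strand: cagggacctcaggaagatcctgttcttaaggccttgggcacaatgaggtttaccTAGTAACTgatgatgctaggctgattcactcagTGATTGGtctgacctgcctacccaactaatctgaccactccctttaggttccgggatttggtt
H2-Aa, chr17:34287824-34287973, minus strand: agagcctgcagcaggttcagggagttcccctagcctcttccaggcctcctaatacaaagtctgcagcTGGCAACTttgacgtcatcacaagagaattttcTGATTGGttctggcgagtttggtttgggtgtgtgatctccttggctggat
H2-Eb1, chr17:34305717-34305866, plus strand: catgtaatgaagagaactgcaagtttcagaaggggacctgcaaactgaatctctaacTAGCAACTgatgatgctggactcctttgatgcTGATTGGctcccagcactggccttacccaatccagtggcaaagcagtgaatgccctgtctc
In all 3 the X letters come before the Y letters, 24 bases apart in H2-Eb1 and 25 bases apart in H2-Aa and H2-DMb1. This order and a gap of 24 to 25 bases were required of the windows shown, so they are not a finding. The X letters start 83, 93 and 96 bases before the start of H2-Aa, H2-Eb1 and H2-DMb1, and the Y letters 50, 61 and 63 bases before it, in the same gene order. On either strand, TNGNAACT is found in 12.3% of 32851 RefSeq windows of 300 bases, and TGATTGG in 7.82%. The pair at a gap of 24 to 25 bases is found in 5 windows (0.0152%), those of H2-Aa, H2-DMb1, H2-Eb1, 1700048F04Rik and BC051142. Because the letters were read off these windows, the share is a description and not a search result. The 2 RefSeq windows of H2-DMa lie 12350 and 9664 bases from its deposited start and hold neither set of letters on the strand of the gene, the only strand read for this statement.

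Elsewhere in the genome, Cd74 (ENSMUSG00000024610) lies on chromosome 18 at 60803848 to 60812646 and Ciita (ENSMUSG00000022504) on chromosome 16 at 10480059 to 10528418, both on the plus strand. All 7 are annotated as protein coding.

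Depth was similar across libraries, at 15276879 to 23467867 counts. Levels are given as CPM, the counts scaled to a common library total of 1000000, with TMM factors over the 15 libraries. The 7 hepatocyte markers listed, among them albumin, summed to between 59631 and 114695 CPM in the 15 libraries. Gpnmb, the target of the hairpin, stood at 1.47, 1.27 and 3.32 CPM in hairpin livers, against 25.9, 35.8 and 32.4 CPM in scramble livers. Without a hairpin it was also low in Activin A livers, at 5.68, 3.37 and 2.96 CPM. It stood at 40.8, 26.1 and 24.9 CPM in GFP NASH livers and 0.243, 0.151 and 0.482 CPM in chow livers. Whether the fall in hairpin livers is knockdown alone was not tested.

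The members differed widely in abundance, with Cd74 highest and Ciita lowest in every group. On the scale of CPM per kilobase of the deposited gene length, Cd74 made up a median of 49.8% of the summed level of the 7 genes (45.2% to 54.0% over 15 libraries). The 3 chain genes followed, with median shares of 18.9% for H2-Eb1, 14.2% for H2-Ab1 and 13.3% for H2-Aa. H2-DMb1 (1.86%) and H2-DMa (1.48%) were far lower, and Ciita took 0.212% (0.0614% to 0.254%). The makeup of the set moved much less than its total. The ratio of the I-A chains, H2-Aa over H2-Ab1 per kilobase, stayed between 0.721 and 1.14 in the 15 libraries, and that of Cd74 over H2-Aa between 3.05 and 4.39. The Cd74 share averaged 53.1% ± 0.96 in Gpnmb hairpin livers and 50.2% ± 0.52 in scramble livers (SD, n = 3 each). It averaged 47.8% ± 0.21 in Activin A livers, 46.8% ± 2.4 in GFP NASH livers and 49.7% ± 3.2 in chow livers. These shares were not tested.

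**Figure D1:**
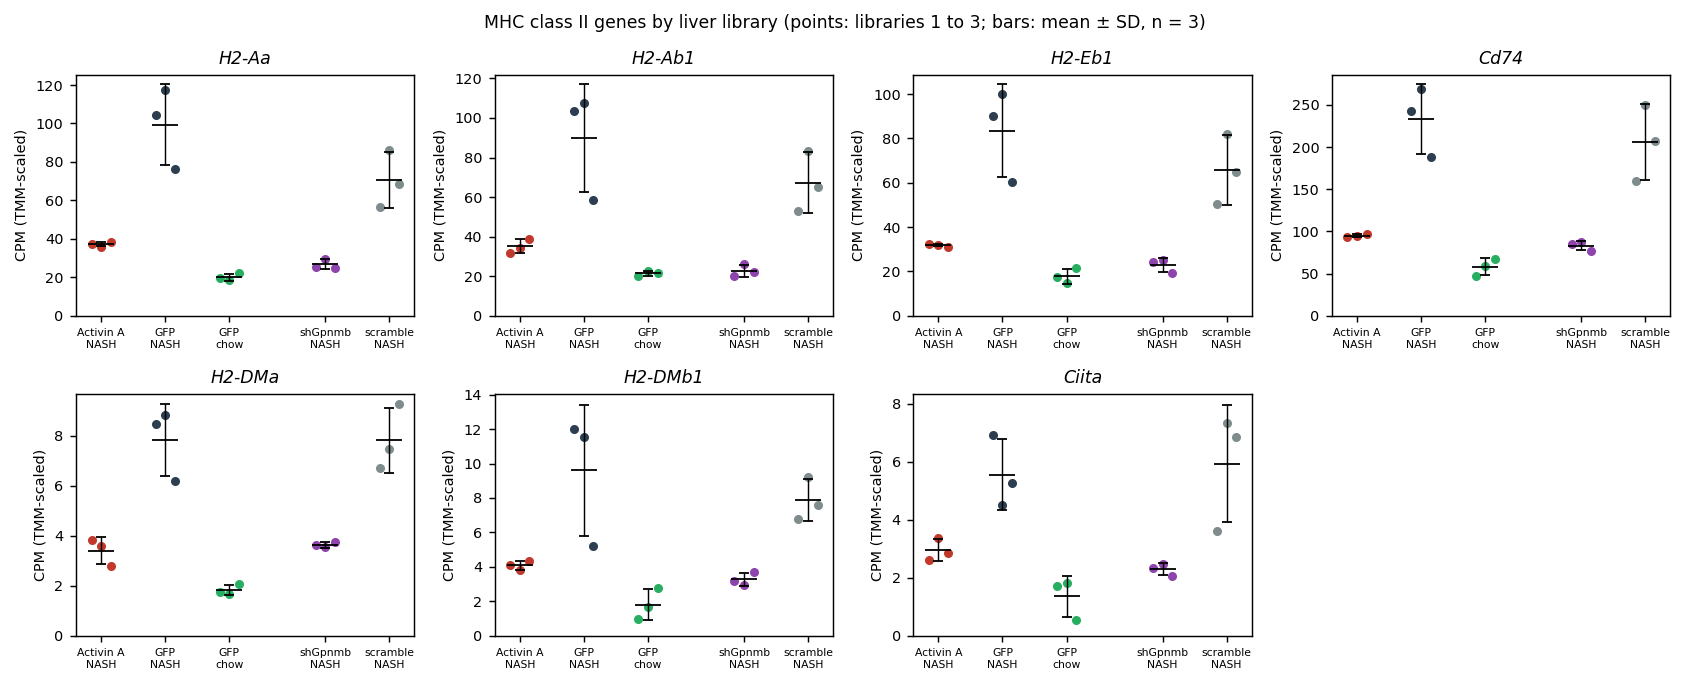
Level of each of the 7 MHC class II genes (y axis, CPM with TMM scaling) in each liver library, by group (x axis); points are libraries 1 to 3 and bars the mean ± SD (n = 3). In all 7 panels the Activin A points lie below the GFP NASH points, the GFP NASH points above the chow points and the Gpnmb hairpin points below the scramble points.

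The diet comparison asked what the NASH diet did under the same GFP vector. All 7 genes rose on the NASH diet, by between 4.12-fold (Cd74) and 5.51-fold (H2-DMb1). H2-Aa, the I-A alpha chain, stood at 105, 117 and 76.4 CPM in GFP NASH livers, against 19.6, 18.5 and 22.0 CPM in chow livers. H2-Ab1, its beta chain partner, stood at 103, 108 and 58.6 CPM in GFP NASH livers, against 20.1, 22.4 and 21.7 CPM in chow livers. Both chains were several times higher in every NASH library, and library 3 was the lowest of the NASH group for each. Their log2 fold changes were 2.35 ± 0.18 for H2-Aa (SE; edgeR adjusted p = 6.58e-05) and 2.11 ± 0.22 for H2-Ab1 (edgeR adjusted p = 0.00032), with 3 libraries per group.

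H2-Eb1 followed the I-A chains, with 90.2, 100.2 and 60.3 CPM in GFP NASH livers, against 17.3, 14.9 and 21.6 CPM in chow livers. Cd74, the invariant chain, stood at 243, 269 and 188 CPM in GFP NASH livers, against 47.3, 59.6 and 67.4 CPM in chow livers. For both genes NASH library 3 was again the lowest of its group, yet well above every chow library. H2-Eb1 rose by 2.26 ± 0.22 on the log2 scale (edgeR adjusted p = 0.000204) and Cd74 by 2.04 ± 0.19 (edgeR adjusted p = 0.000164).

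The peptide exchange genes and the transactivator were low but rose as much. H2-DMa stood at 8.47, 8.84 and 6.19 CPM in GFP NASH livers, against 1.76, 1.66 and 2.07 CPM in chow livers. H2-DMb1 stood at 12.0, 11.5 and 5.22 CPM in GFP NASH livers, against 0.972, 1.66 and 2.76 CPM in chow livers. The chow libraries spread widely for H2-DMb1, and the 2 groups still did not overlap. Ciita stood at 6.91, 4.49 and 5.27 CPM in GFP NASH livers, against 1.70, 1.81 and 0.551 CPM in chow livers. Here NASH library 2, not library 3, was the lowest of its group. The log2 fold changes were 2.13 ± 0.27 for H2-DMa (edgeR adjusted p = 0.0007), 2.46 ± 0.42 for H2-DMb1 (edgeR adjusted p = 0.00329) and 2.06 ± 0.42 for Ciita (edgeR adjusted p = 0.00789).

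Of the 7 genes, 7 were called higher by edgeR at an adjusted p under 0.05, where 11.2% of the 14388 genes tested were called higher and 5.82% lower (17.0% in all). For all 7 every NASH library was above every chow library, as for 19.0% of the genes tested. The median log2 fold change was 2.13 over the 7 genes and -0.01 over all genes tested. All 7 calls were also made by DESeq2 and limma-voom, under both other scalings and without any one library. H2-DMb1 and its near-identical neighbour H2-DMb2 may share reads, as no source used here gives the counting rule. H2-DMb2 itself stood at 1.47, 0.869 and 1.35 CPM in GFP NASH livers, against 0.122, 0.378 and 0.551 CPM in chow livers, with a log2 fold change of 1.85 ± 0.60 (edgeR adjusted p = 0.0590).

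The Activin A comparison asked what hepatocyte expression of this ligand of the transforming growth factor beta family did to livers on the NASH diet. H2-Aa, H2-Ab1, H2-Eb1, Cd74, H2-DMa and H2-DMb1 fell under Activin A, by between 2.30-fold and 2.67-fold, and Ciita did not pass. The GFP NASH libraries are the same as in the diet comparison, so the 2 comparisons share them. H2-Aa stood at 37.4, 36.0 and 38.4 CPM in Activin A livers, against 105, 117 and 76.4 CPM in GFP NASH livers. H2-Ab1 stood at 31.9, 34.4 and 39.0 CPM in Activin A livers, against 103, 108 and 58.6 CPM in GFP NASH livers. The Activin A libraries were close to each other and all below GFP NASH library 3, the lowest of its group. H2-Aa fell by 1.42 ± 0.15 on the log2 scale (SE; edgeR adjusted p = 0.00119) and H2-Ab1 by 1.36 ± 0.21 (edgeR adjusted p = 0.00625), with 3 libraries per group.

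H2-Eb1 stood at 32.2, 32.0 and 31.2 CPM in Activin A livers, against 90.2, 100.2 and 60.3 CPM in GFP NASH livers. Cd74 stood at 93.7, 94.0 and 96.8 CPM in Activin A livers, against 243, 269 and 188 CPM in GFP NASH livers. The 3 Activin A libraries differed little, while the GFP NASH libraries spread more, and the groups did not overlap. The log2 fold changes were -1.39 ± 0.17 for H2-Eb1 (edgeR adjusted p = 0.00217) and -1.30 ± 0.13 for Cd74 (edgeR adjusted p = 0.00113).

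H2-DMa stood at 3.82, 3.60 and 2.78 CPM in Activin A livers, against 8.47, 8.84 and 6.19 CPM in GFP NASH livers, and fell by 1.20 ± 0.22 on the log2 scale (edgeR adjusted p = 0.0147). H2-DMb1 stood at 4.10, 3.83 and 4.35 CPM in Activin A livers, against 12.0, 11.5 and 5.22 CPM in GFP NASH livers, and fell by 1.23 ± 0.30 (edgeR adjusted p = 0.0425). Its GFP NASH library 3 was near the Activin A libraries. Ciita stood at 2.62, 3.37 and 2.84 CPM in Activin A livers, against 6.91, 4.49 and 5.27 CPM in GFP NASH livers. All 3 Activin A libraries lay below the GFP NASH libraries, and the log2 fold change of -0.92 ± 0.24 did not pass the threshold (edgeR adjusted p = 0.0602). In the authors' deposited table the log2 fold change of Ciita was -0.92 with an adjusted p of 0.0404.

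Of the 7 genes, 6 were called lower by edgeR, where 3.86% of the 14598 genes tested were called lower and 1.66% higher (5.52% in all). Every Activin A library lay below every GFP NASH library for all 7, as for 13.4% of the genes tested. The median log2 fold change was -1.30 over the 7 genes and 0.00 over all genes tested. The chain genes and Cd74 were called under every alternative. H2-DMb1 was not called without Activin A library 1, 2 or 3 or without GFP NASH library 1 or 2 (edgeR adjusted p = 0.118 to 0.149), and H2-DMa was not called without Activin A library 2 (edgeR adjusted p = 0.0542) or 3 (edgeR adjusted p = 0.0822).

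The hairpin comparison asked what lowering Gpnmb, a transmembrane glycoprotein gene of macrophages and other cells, did on the same diet. All 7 genes fell in Gpnmb hairpin livers, by between 2.16-fold (H2-DMa) and 2.96-fold (H2-Ab1). This comparison shares no library with the other 2. H2-Aa stood at 25.6, 29.7 and 24.9 CPM in Gpnmb hairpin livers, against 56.8, 86.3 and 68.8 CPM in scramble livers. H2-Ab1 stood at 20.3, 26.1 and 21.9 CPM in Gpnmb hairpin livers, against 53.0, 83.5 and 65.3 CPM in scramble livers. For both chains scramble library 1 was the lowest of its group and still well above every hairpin library. H2-Aa fell by 1.40 ± 0.14 on the log2 scale (SE; edgeR adjusted p = 0.00012) and H2-Ab1 by 1.57 ± 0.16 (edgeR adjusted p = 0.00012), with 3 libraries per group.

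H2-Eb1 stood at 24.2, 25.0 and 19.1 CPM in Gpnmb hairpin livers, against 50.2, 81.8 and 64.7 CPM in scramble livers. Cd74 stood at 84.6, 87.9 and 76.8 CPM in Gpnmb hairpin livers, against 160, 250.3 and 208 CPM in scramble livers. As for the I-A chains, scramble library 1 was the lowest and library 2 the highest of the controls. The log2 fold changes were -1.53 ± 0.17 for H2-Eb1 (edgeR adjusted p = 0.00019) and -1.31 ± 0.14 for Cd74 (edgeR adjusted p = 0.000159).

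H2-DMa stood at 3.61, 3.53 and 3.76 CPM in Gpnmb hairpin livers, against 6.71, 7.46 and 9.25 CPM in scramble livers. H2-DMb1 stood at 3.18, 2.95 and 3.70 CPM in Gpnmb hairpin livers, against 6.80, 9.24 and 7.60 CPM in scramble livers. The hairpin libraries were tightly grouped for both H2-DM genes and below every scramble library. Ciita stood at 2.33, 2.48 and 2.07 CPM in Gpnmb hairpin livers, against 3.62, 7.33 and 6.86 CPM in scramble livers. Scramble library 1 lay far below its 2 fellows for Ciita, but above the hairpin libraries. The genes fell by 1.11 ± 0.18 (H2-DMa, edgeR adjusted p = 0.00178), 1.27 ± 0.19 (H2-DMb1, edgeR adjusted p = 0.00112) and 1.38 ± 0.28 (Ciita, edgeR adjusted p = 0.00568) on the log2 scale.

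Of the 7 genes, 7 were called lower by edgeR, where 12.0% of the 14845 genes tested were called lower and 12.2% higher (24.3% in all). The hairpin libraries lay below the scramble libraries for all 7 genes, as for 20.0% of the genes tested. The median log2 fold change was -1.38 over the 7 genes and 0.00 over all genes tested. All 7 calls were also made by DESeq2 and limma-voom, under both other scalings and without any one library.

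**Figure D2:**
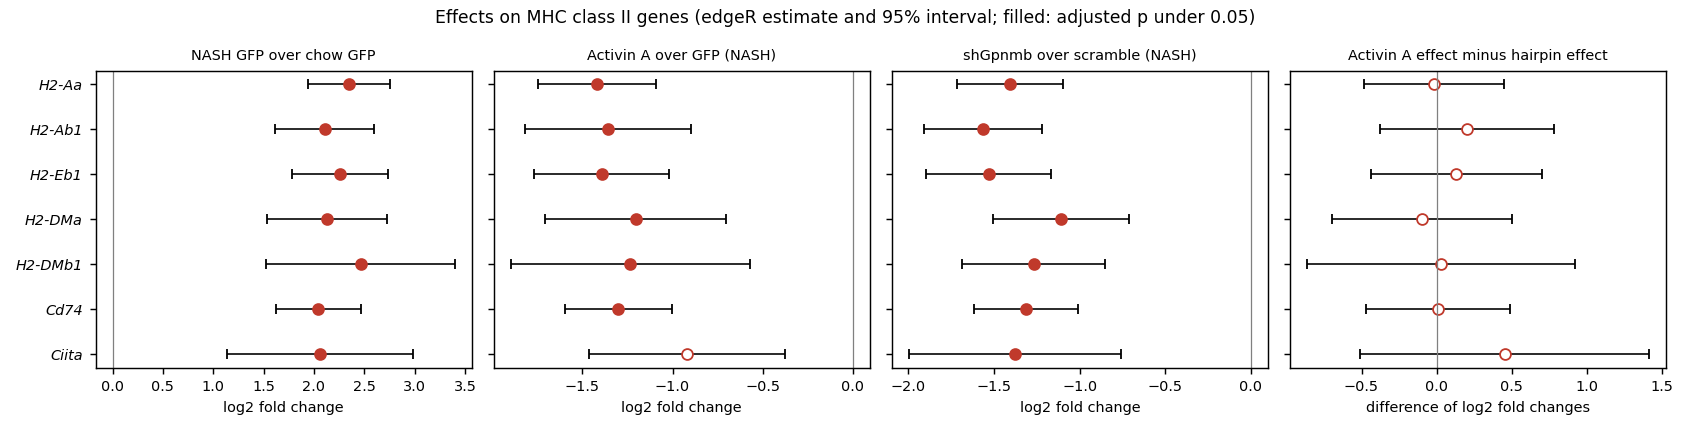
Log2 fold change of each MHC class II gene (x axis; rows are genes) in the diet, Activin A and Gpnmb hairpin comparisons, and the difference between the last 2 effects; points are edgeR estimates, bars 95% intervals, and filled points an adjusted p under 0.05. Estimates sit between 2.04 and 2.46 for the diet, -1.42 and -0.92 for Activin A and -1.57 and -1.11 for the hairpin, and each interval of the difference holds 0.

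Whether the Activin A effect and the hairpin effect on these genes differ was tested directly, as the 2 comparisons share no library. None of the 7 genes passed (0 of 7 by edgeR, DESeq2 or limma-voom, and 0 by edgeR at an unadjusted p under 0.05), where of 15654 genes tested 1.91% were called higher and 2.15% lower, 4.06% in all. The estimate, Activin A effect minus hairpin effect, was -0.02 for H2-Aa (95% interval -0.48 to 0.45; edgeR adjusted p = 0.982) and 0.01 for Cd74 (-0.47 to 0.49; edgeR adjusted p = 0.990). It was 0.20 for H2-Ab1 (-0.38 to 0.78), 0.13 for H2-Eb1 (-0.43 to 0.70), -0.10 for H2-DMa (-0.70 to 0.50) and 0.03 for H2-DMb1 (-0.86 to 0.92). Ciita had the largest estimate of the 7, at 0.45 (-0.51 to 1.42; edgeR adjusted p = 0.689). The intervals leave room for differences of up to 1.42 on the log2 scale, so equal effects are not shown.

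Across all 5 groups the order of mean levels was nearly the same from gene to gene. For H2-Aa, H2-Ab1, H2-Eb1, H2-DMb1 and Cd74 it ran from chow, the lowest, through Gpnmb hairpin, Activin A and scramble to GFP NASH livers, the highest. The scramble and GFP NASH libraries overlapped for each of the 7 genes. The hairpin and chow libraries overlapped for H2-Ab1 and H2-Eb1 and not for the other 5 genes. H2-DMa stood apart in that the hairpin and Activin A libraries overlapped, with the hairpin mean the higher. For Ciita the scramble mean (5.94 ± 2.02 CPM) lay above the GFP NASH mean (5.56 ± 1.23 CPM; SD, n = 3 each), with overlapping libraries. These orders were not tested.

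Within groups, where the diet and vectors are held constant, the members still varied together to different degrees. Over the 21 pairs of members, the correlation of log2 CPM after subtracting group means had a median of 0.599 (range -0.362 to 0.942; 15 libraries). H2-Aa with H2-Eb1 was the highest, and the lowest was H2-DMb1 with Ciita. The pairs that hold Ciita ran from -0.362 to 0.253, below every pair without it. Ciita was also the lowest member, at 8 to 175 counts per library, and the part of counting noise in its correlations was not tested. The lowest pair without Ciita was H2-Ab1 with H2-DMa (0.399). Without that subtraction the range was 0.754 to 0.993, which mainly carries the differences between groups. These are descriptions, and the points of a group share their diet and vector. GFP NASH library 3 was the lowest of its group for 6 of the 7 genes, and scramble library 1 for all 7.

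The genes whose pattern was most like the mean of the 7 (each member's log2 CPM standardized, over 11780 genes averaging 1 or more on the log2 CPM scale) were led by Lgals3, a galectin gene of macrophages, with a correlation of 0.991 over 15 libraries. Anxa5 (0.984), C1qb (0.984), Lyz2 (0.979), Tyrobp (0.976), Itgax (0.971), Ccl6 (0.970), AB124611 (0.970), C1qc (0.968) and Clec7a (0.967) followed. C1qb and C1qc encode complement C1q chains, Lyz2 a lysozyme, and Itgax the integrin CD11c. The median over all genes compared was -0.111. After subtracting group means the order changed. Kbtbd8 (0.932), Gas6 (0.917) and Tagln2 (0.909) came first, and Anxa5 (0.900) alone was among the first 10 in both orders.

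The transcription of class II genes was followed through 13 further genes of their control: the RFX and NF-Y subunits, CREB1, interferon receptor and interferon-responsive factors, and Spi1. On the diet 4 of 13 rose and 0 fell (median log2 fold change 0.07), against 11.2% of genes called higher. Spi1, which encodes the myeloid factor PU.1, stood at 14.1, 12.2 and 15.5 CPM in GFP NASH livers, against 3.34, 3.55 and 3.31 CPM in chow livers, and rose by 2.07 ± 0.20 on the log2 scale (edgeR adjusted p = 0.000233). Irf8, a factor of monocytes, dendritic cells and B cells, rose by 1.51 ± 0.22 (edgeR adjusted p = 0.00135), and Ifngr2, a chain of the interferon gamma receptor, by 0.97 ± 0.18 (edgeR adjusted p = 0.00502). Under Activin A 3 of 13 fell and 0 rose (median -0.24): Spi1 by 0.93 ± 0.15 (edgeR adjusted p = 0.0077), Irf8 by 0.93 ± 0.16 (edgeR adjusted p = 0.0105) and Irf1 by 0.53 ± 0.12 (edgeR adjusted p = 0.033).

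In Gpnmb hairpin livers 4 of these 13 genes fell and 3 rose (median -0.11). Spi1 stood at 5.08, 5.33 and 3.10 CPM in hairpin livers, against 12.3, 12.9 and 12.5 CPM in scramble livers, and fell by 1.49 ± 0.19 (edgeR adjusted p = 0.000428). Rfxank, part of the RFX complex on the X element, rose by 0.54 ± 0.11 (edgeR adjusted p = 0.00495). With library sizes alone as the scaling, 1 of these 3 rises was called. Rfx5, the DNA-binding RFX subunit, was called in none of the comparisons.

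Genes that cut the invariant chain or turn over class II molecules moved in part. On the diet 4 of 11 rose and 0 fell (median 0.49). Ctss, the cathepsin S that makes the last cut in the invariant chain, stood at 91.4, 89.7 and 71.8 CPM in GFP NASH livers, against 16.3, 17.8 and 31.1 CPM in chow livers, a rise of 2.00 ± 0.23 (edgeR adjusted p = 0.00049). Lgmn, the asparagine endopeptidase, rose by 1.22 ± 0.18 (edgeR adjusted p = 0.00144), and March1, a ubiquitin ligase that removes class II molecules from the surface, by 2.10 ± 0.45 (edgeR adjusted p = 0.0100). Under Activin A 4 of 11 fell and 0 rose (median -0.49). Ctss stood at 32.6, 33.5 and 35.5 CPM in Activin A livers, below every GFP NASH library, and fell by 1.32 ± 0.11 (edgeR adjusted p = 0.000539). Lgmn fell by 0.76 ± 0.10 (edgeR adjusted p = 0.00364) and Ifi30, the lysosomal thiol reductase, by 0.73 ± 0.14 (edgeR adjusted p = 0.0160).

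In Gpnmb hairpin livers 6 of the 11 processing genes fell and 1 rose (median -0.42). Ctss stood at 31.2, 33.1 and 27.7 CPM in hairpin livers, against 61.2, 68.5 and 62.2 CPM in scramble livers, and fell by 1.06 ± 0.09 (edgeR adjusted p = 3.81e-05). Ctsd, cathepsin D, fell by 0.49 ± 0.07 (edgeR adjusted p = 0.00119). Sppl2a, the intramembrane protease that clears the Cd74 remnant, went the other way. It stood at 249, 249.8 and 271 CPM in hairpin livers, against 168, 151 and 164 CPM in scramble livers, and rose by 0.67 ± 0.07 (edgeR adjusted p = 0.000182).

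Surface partners of antigen presentation rose on the diet in 3 of 8 genes (0 fell, median 0.99). Cd274, which encodes PD-L1, rose by 1.44 ± 0.37 (edgeR adjusted p = 0.0227), Icam1 by 0.98 ± 0.26 (edgeR adjusted p = 0.0283) and Cd86, a CD28 ligand, by 1.24 ± 0.34 (edgeR adjusted p = 0.0327). Under Activin A 2 of 8 fell (0 rose, median -0.67), namely Cd274 by 1.36 ± 0.28 (edgeR adjusted p = 0.0219) and Icam1 by 0.56 ± 0.13 (edgeR adjusted p = 0.0420). In hairpin livers 3 of 8 fell (0 rose, median -0.49). They were the B cell and dendritic cell receptor gene Cd40 (by 2.30 ± 0.52, edgeR adjusted p = 0.00961), Icam1 (by 0.67 ± 0.18, edgeR adjusted p = 0.0213) and Cd274 (by 0.90 ± 0.27, edgeR adjusted p = 0.0338). The 2 further class II genes tested, H2-Ob and H2-DMb2, passed in no comparison by edgeR with TMM scaling or by limma-voom, while edgeR with library sizes alone called both higher on the diet. At an unadjusted p under 0.05 both were higher on the diet and neither moved in the other comparisons, and DESeq2 called 1 of them, on the diet.

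The MHC class I pathway, which presents peptides from the cytosol on nearly all cells, was measured beside it in 15 genes. On the diet 1 of 15 rose and 2 fell (median 0.07), but with library sizes alone as the scaling 4 rose and 1 fell (median 0.32), so no direction of this list on the diet is given. H2-D1, a class I heavy chain, stood at 738, 758 and 821 CPM in GFP NASH livers, against 558, 487 and 590 CPM in chow livers, and rose by 0.54 ± 0.16 (edgeR adjusted p = 0.0392). The chaperone genes Calr and Pdia3 fell by 0.99 ± 0.20 (edgeR adjusted p = 0.00858) and 0.80 ± 0.22 (edgeR adjusted p = 0.0310). Under Activin A 7 of 15 fell and 0 rose (median -0.44), led by the immunoproteasome genes Psmb9 (by 0.74 ± 0.12, edgeR adjusted p = 0.0074) and Psmb8 (by 0.76 ± 0.12, edgeR adjusted p = 0.0077). In hairpin livers 6 of 15 fell and 2 rose (median -0.19), where the peptide transporter gene Tap1 fell by 0.51 ± 0.08 (edgeR adjusted p = 0.00147) and Pdia3 rose by 0.49 ± 0.10 (edgeR adjusted p = 0.00595).

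**Figure D3:**
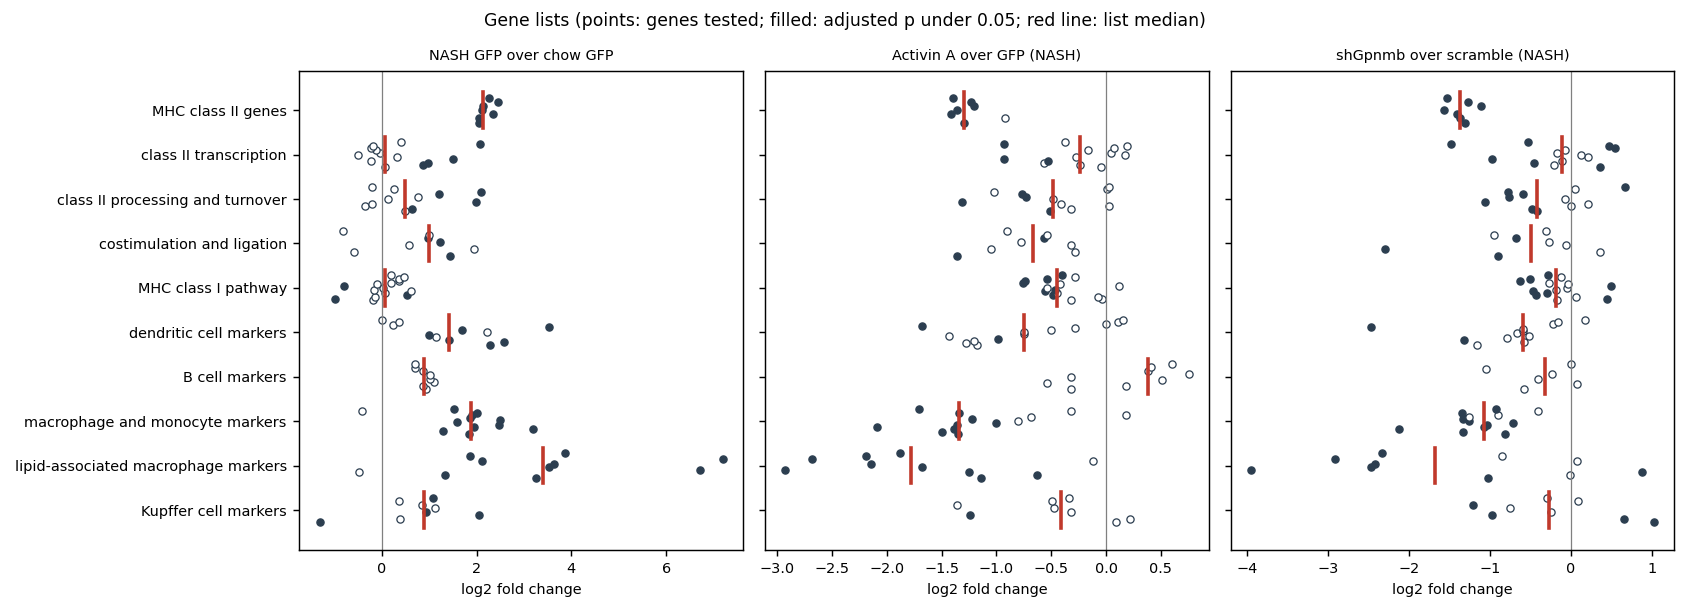
Log2 fold changes (x axis) of the genes of each list (rows) in the diet, Activin A and Gpnmb hairpin comparisons; each point is a tested gene, filled at an adjusted p under 0.05, and red lines are list medians. The medians of the 7 class II genes are 2.13, -1.30 and -1.38, those of the 15 MHC class I genes 0.07, -0.44 and -0.19, and the macrophage and lipid-associated macrophage rows move in the same directions as the class II row.

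Macrophage and monocyte markers and some dendritic cell markers moved with these results, while Kupffer cell markers were mixed and no B cell marker was called. In bulk liver, fewer cells of a type and less RNA per cell cannot be told apart. The 13 macrophage and monocyte markers summed to 554 to 631 CPM in GFP NASH livers, against 223 to 317 CPM in chow livers, and 11 of 12 tested rose (median 1.88). They summed to 216 to 299 CPM in Activin A livers, against the same GFP NASH range, and 9 of 13 fell (median -1.34). In Gpnmb hairpin livers they summed to 283 to 328 CPM, against 527 to 593 CPM in scramble livers, and 10 of 13 fell (median -1.07). No marker of this list was at 0 in any group, and its part in the class II results was not tested. Lyz2 stood at 176, 191 and 130 CPM in GFP NASH livers, against 31.6, 44.6 and 50.4 CPM in chow livers, and at 61.1, 68.9 and 66.3 CPM in Activin A livers. Like most members, it was lowest in NASH library 3.

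The summed level of the 7 class II genes, set over the summed macrophage and monocyte markers in the same library, was 0.723 to 1.09 in GFP NASH livers, against 0.380 to 0.529 in chow livers. It was 0.693 to 0.953 in Activin A livers, against 0.723 to 1.09 in GFP NASH livers, and these ranges overlap. In Gpnmb hairpin livers it was 0.490 to 0.629, against 0.640 to 0.887 in scramble livers. The groups did not overlap on this ratio for the diet and the hairpin. The ratio was chosen after its values were seen and was not tested.

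Of 10 lipid-associated macrophage markers 9 rose on the diet (median 3.40), 9 fell under Activin A (median -1.78), and 6 fell and 1 rose in hairpin livers (median -1.68). That 1 rise was called by neither DESeq2 nor limma-voom, nor by edgeR with library sizes alone. Trem2, a lipid receptor of these cells, rose by 3.86 ± 0.28 on the diet (edgeR adjusted p = 5.13e-05) and fell by 1.88 ± 0.35 under Activin A (edgeR adjusted p = 0.0139) and by 2.33 ± 0.25 in hairpin livers (edgeR adjusted p = 0.000177). Of 8 Kupffer cell markers 3 rose and 1 fell on the diet (median 0.90), 1 fell and 0 rose under Activin A (median -0.41), and 2 rose and 2 fell in hairpin livers (median -0.27). The 1 that fell on the diet was the complement gene C6, by far the most abundant of the list in chow livers, which also rose in hairpin livers. Without C6 the other 7 markers summed to 230.2 to 351 CPM in GFP NASH livers, against 94.0 to 146 CPM in chow livers, and to 155 to 218 CPM in Activin A livers, against that GFP NASH range. In hairpin livers they summed to 199 to 277 CPM, against 339 to 344 CPM in scramble livers. With C6 included the sums were 433 to 593 CPM in GFP NASH livers, against 614 to 680 CPM in chow livers, and 563 to 587 CPM in hairpin livers, against 500.3 to 511 CPM in scramble livers, so the direction turned with this 1 gene. The sum without C6 was chosen after its values were seen, and the part of these markers in the class II results was not tested.

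Of the dendritic cell markers 6 of 11 rose on the diet (median 1.41), 2 of 13 fell under Activin A (median -0.75) and 2 of 12 fell in hairpin livers (median -0.59). Over all genes tested, 11.2% were called higher on the diet, 3.86% lower under Activin A and 12.0% lower in hairpin livers. The hairpin count is near its share. Zbtb46, the most abundant of the list, was not called on the diet (log2 fold change 0.01), nor were Xcr1 (0.37) and Siglech (0.24). Mean Zbtb46 was 7.64 CPM in Activin A and 6.87 CPM in GFP NASH livers, and 9.87 in hairpin and 8.75 CPM in scramble livers. Itgax, which macrophages also express and which is in the lipid-associated list too, stood at 10.3, 9.47 and 9.95 CPM in GFP NASH livers, against 0.608, 1.13 and 0.896 CPM in chow livers. Cd83, a marker of mature dendritic cells, rose by 1.41 ± 0.34 on the diet (edgeR adjusted p = 0.0181) and fell by 0.99 ± 0.23 under Activin A (edgeR adjusted p = 0.0411) and 1.32 ± 0.38 in hairpin livers (edgeR adjusted p = 0.0273). Ccr7, the receptor of migrating dendritic cells, rose by 2.59 ± 0.58 on the diet (edgeR adjusted p = 0.0128). The 13 markers summed to 38.9 to 48.4 CPM in GFP NASH livers, against 16.8 to 19.4 CPM in chow livers. They summed to 25.9 to 28.5 CPM in Activin A livers, against the GFP NASH range above, and to 24.2 to 28.3 CPM in hairpin livers, against 36.7 to 50.7 CPM in scramble livers. No dendritic cell marker was at 0 in any group, and their part in the results was not tested.

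No B cell marker was called in any of the 3 comparisons. Of the 10 markers listed, only those that passed the filter on low counts were tested. By edgeR 0 of 8 passed on the diet, 0 of 9 under Activin A and 0 of 6 in hairpin livers, with 0 at an unadjusted p under 0.05 and 0 by DESeq2 or limma-voom in each. Their sum was 7.54 to 14.2 CPM in GFP NASH livers, against 4.74 to 8.41 CPM in chow livers, and 9.995 to 17.0 CPM in Activin A livers, against 7.54 to 14.2 CPM in GFP NASH livers. It was 4.01 to 8.14 CPM in hairpin livers, against 7.56 to 8.28 CPM in scramble livers. At these low levels smaller changes were not detectable.

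**Figure D4:**
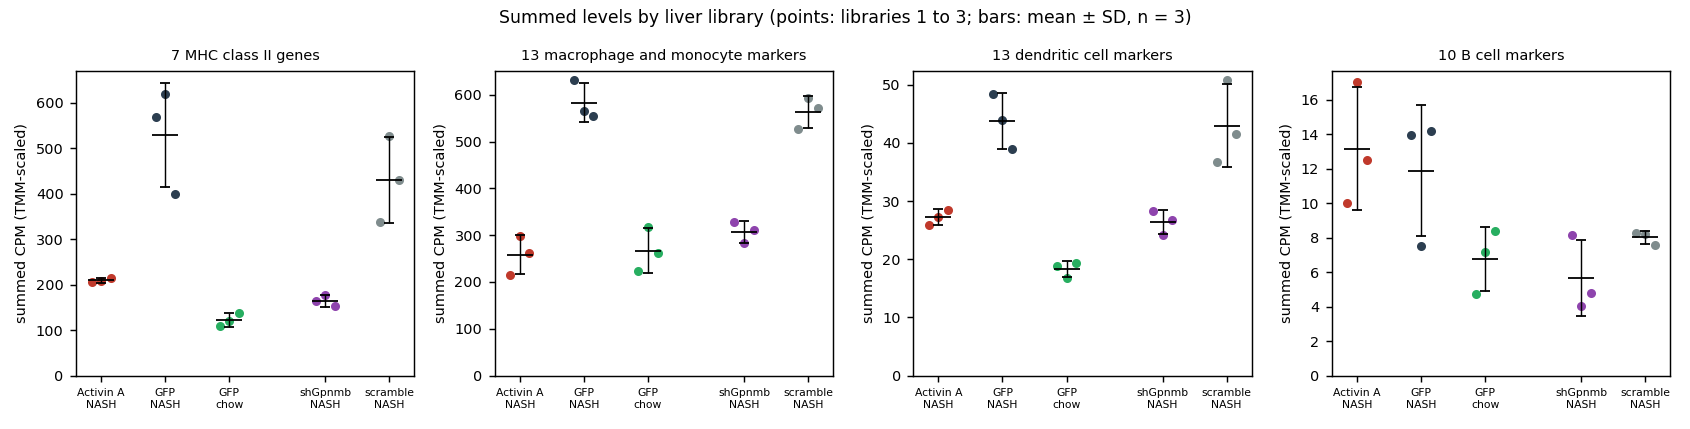
Summed level (y axis, CPM with TMM scaling) of the 7 MHC class II genes and of the macrophage and monocyte, dendritic cell and B cell markers in each library, by group (x axis); points are libraries 1 to 3 and bars the mean ± SD (n = 3). The class II sum is 206 to 215 CPM in Activin A, 400.2 to 619 CPM in GFP NASH and 109 to 138 CPM in chow livers, and 152 to 178 CPM in Gpnmb hairpin and 337 to 526 CPM in scramble livers.

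Markers of other liver cells gave smaller or mixed counts. Of the T and NK cell markers 1 of 5 rose on the diet (Cd8a, by 4.36 ± 0.72 on the log2 scale, edgeR adjusted p = 0.00270). By edgeR 0 of 6 passed under Activin A (3 lower at an unadjusted p under 0.05, 0 by DESeq2 or limma-voom) and 0 of 3 in hairpin livers (0 by each of these). Cd8a had 91 counts in all over the GFP NASH libraries and 3 over the chow libraries, so its diet estimate rests on a level near 0. Of 9 sinusoidal endothelial markers 3 rose on the diet, 1 rose and 1 fell under Activin A and 4 fell in hairpin livers. Of 7 hepatocyte markers 3 fell on the diet, 1 rose under Activin A and 3 rose in hairpin livers. With library sizes alone the endothelial rise under Activin A was lost, and 2 hepatocyte markers rose and 1 fell in hairpin livers. Of 5 biliary markers 3 rose on the diet, 1 fell under Activin A, and 0 passed in hairpin livers by edgeR, DESeq2 or limma-voom (2 lower at an unadjusted p under 0.05). Spp1, the most abundant of these 5, is in the lipid-associated macrophage list too. It was 1 of the 3 that rose on the diet (by 1.86 ± 0.29, edgeR adjusted p = 0.00196).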

How the data were processed

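The 7 genes and the 15 gene lists (143 of 147 listed genes are in the tables) were chosen with earlier results of these data known. Each of the 3 deposited tables held whole-number counts per gene and library, not normalized, per the file headers, beside the gene length and coordinates, the authors' log2 fold changes and the authors' adjusted p-values. The build is GRCm38 (mm10), per the submitters' processing notes, and RNA was column-purified and made into stranded poly(A) libraries, per the labels' protocols. No source used here gives the aligner, counter, strand setting or annotation release. The tables held 36 per-sample columns that were not used, and 22 gene symbols stored as dates were restored from gene identifiers. The GFP NASH counts were identical in both tables that hold them (0 of 23148 genes differed). Within groups, pairs of libraries differed by more than counting noise (lowest chi-square 5.54 per degree of freedom), so each was counted once.

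Counts were filtered (filterByExpr, minimum count 10), scaled by TMM and tested with edgeR 4.0.16 (quasi-likelihood, R 4.3.3) in 2-group fits over all genes, with two-sided p-values adjusted by Benjamini-Hochberg and called under 0.05. The difference of effects was a contrast in 1 fit of all 5 groups over genes in all 3 tables. SE is the size of the log2 fold change over the root of the F statistic. Scripts were tested on simulated counts. Genes named from a list were the 3 called ones with the smallest p in a comparison, or, with no call, that of lowest p. Rfx5, Zbtb46, Xcr1 and Siglech were added after their values were seen. At least 1 gene that meets this rule is not reported here. Alternatives were size factors from DESeq2, library size alone, no filter, DESeq2 1.42.0, limma-voom (limma 3.58.1), all 15 libraries in 1 fit, the replicate number as a block, and leaving out each library. Depth was 15276879 to 23467867 counts per library, and intervals cover the spread between libraries only.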

Additional observations from a re-analysis of the deposited data

Results flagged for a closer look

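The effects of Activin A and of the Gpnmb hairpin, which share no library, differed for 6 genes on the lists, while none of the 7 class II genes is among them. Each is given with the adjusted p of that difference (edgeR, 3 libraries per group). Sppl2a, which clears the Cd74 remnant, had a log2 difference of -0.64 (adjusted p = 0.00833): it stood at 212, 204 and 197 CPM in Activin A livers, against 196, 196 and 208 CPM in GFP NASH livers, and its values in the hairpin comparison are given above. Ms4a1, which encodes the B cell antigen CD20, had an adjusted p of 0.0400, though by limma-voom 0 of 10 B cell markers passed for this difference. It had 25, 31 and 24 counts in Activin A livers, against 38, 19 and 15 counts in GFP NASH livers, and 0, 1 and 0 counts in hairpin livers, against 10, 6 and 11 counts in scramble livers.

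The complement gene C6 had a log2 difference of -0.93 (adjusted p = 0.00475), with 310.1, 326 and 364 CPM in hairpin livers, against 167, 161 and 161 CPM in scramble livers, and 227, 217 and 216 CPM in Activin A livers, against 173, 203 and 242 CPM in GFP NASH livers. Fabp5, a fatty acid binding protein gene, had a log2 difference of -2.12 (adjusted p = 0.00226), with 5.79, 8.74 and 7.85 CPM in Activin A livers, against 15.8, 16.0 and 21.4 CPM in GFP NASH livers. In hairpin livers it stood at 43.8, 42.0 and 18.9 CPM, against 17.0, 22.1 and 17.9 CPM in scramble livers, so hairpin library 3 lay within the scramble range. Ttr, the transthyretin gene of hepatocytes, had a log2 difference of 1.11 (adjusted p = 0.00532), with 6505, 6594 and 6843 CPM in Activin A livers, against 3362, 3485 and 2939 CPM in GFP NASH livers, and 3308, 3369 and 3302 CPM in hairpin livers, against 3914, 3145 and 3529 CPM in scramble livers. Cps1, the first enzyme of the urea cycle, had a log2 difference of -0.90 (adjusted p = 0.0401), with 4329, 5159 and 5388 CPM in hairpin livers, against 2909, 1924 and 2347 CPM in scramble livers, and 2735, 3088 and 2828 CPM in Activin A livers, against 2014, 2711 and 3075 CPM in GFP NASH livers.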

How the results depend on the processing

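The diet and hairpin calls of all 7 class II genes, and the direction of each member under the diet, Activin A and the hairpin, were kept under every alternative run. Under Activin A the count of members called ranged from 4 to 6 with a library left out and was 5 with the replicate block, where H2-DMb1 had an adjusted p of 0.0641. H2-DMb1 was also lost with limma-voom (-1.16, adjusted p = 0.102), and Ciita was called without a filter (-0.92, adjusted p = 0.0304) and by DESeq2 (-0.92, adjusted p = 0.0193). After subtracting group means, the correlations of same-numbered libraries ran from -0.151 to 0.037, and differently numbered libraries reached 0.206. With 3 libraries per group, these values cannot decide whether the replicate numbers pair the libraries. The block left 467 genes lower on the diet and changed no other member's call.

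Counts over all genes moved more. With library size alone, 2671 genes were higher and 405 lower on the diet, and 1006 higher in hairpin livers. That scaling shifts the median of all genes by 0.24 (diet), -0.06 (Activin A) and -0.11 (hairpin) on the log2 scale, and the share of calls that are higher to 86.8% against 65.7%, 20.4% against 30.0% and 29.0% against 50.3%. With all 15 libraries in 1 fit the diet had 2479 higher and 2029 lower and the hairpin 838 and 1048. Under Activin A there were 372 higher and 881 lower without a filter and 389 and 869 by DESeq2. The difference of effects had 452 and 533 by DESeq2, and 499 and 588 with the 4 NASH groups alone. With a library left out, genes called higher and lower ranged over 971 to 1472 and 384 to 797 (diet), 68 to 535 and 180 to 900 (Activin A, highest without GFP NASH library 3 and lowest without Activin A library 3), 929 to 1685 and 994 to 1811 (hairpin, lowest without scramble library 3), and 180 to 315 and 186 to 399 (difference).

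The difference of effects was near 0 and changed sign for 6 of the 7 members under at least 1 alternative. H2-Aa came to 0.034 with library size alone and 0.0038 without a filter, and with a library left out it ranged from -0.185 to 0.118. The same ranges were -0.154 to 0.163 for Cd74, -0.0256 to 0.354 for H2-Ab1, -0.0569 to 0.292 for H2-Eb1, -0.240 to 0.0260 for H2-DMa and -0.263 to 0.226 for H2-DMb1. No member was called there under any alternative. Library size alone also put the mean chow levels at 17.3 CPM (H2-Aa), 18.5 CPM (H2-Ab1) and 1.58 CPM (H2-DMa). The causes were not tested. Depth limits the low genes most: Ciita had 60 counts in all over the chow libraries.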
